A study of Homo sapiens with 4 samples.

Results

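The TNF superfamily comprises signaling ligands and the receptors that bind them at the surface of neighboring cells. Receptors with a death domain, among them TNFRSF1A, TNFRSF10A, TNFRSF10B and TNFRSF21, can recruit caspases, and many members activate NF-kappaB, a transcription factor of inflammation and survival. TNF is the founding inflammatory cytokine, TNFSF10 (TRAIL) is the ligand of TNFRSF10A and TNFRSF10B, and TNFSF12 (TWEAK) is the ligand of TNFRSF12A (Fn14), a small receptor without a death domain. TNFRSF21 (death receptor 6) is a further death-domain receptor. TNF signaling is a known inducer of the epithelial-to-mesenchymal transition (EMT), in which epithelial cells lose cell-cell contacts and become migratory.

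The 8 genes TNF, TNFSF10, TNFSF12, TNFRSF1A, TNFRSF10A, TNFRSF10B, TNFRSF12A and TNFRSF21 were selected by name, and all 8 had a row in each of the 4 plates, among 19577 genes in all. The cells were MCF10A_H2B_GFP, a GFP-marked derivative of an untransformed human breast epithelial line, all seeded as a circular patch of 10000 cells on fibronectin and cultured for 6 days with horse serum, EGF, hydrocortisone, cholera toxin and insulin. Patches were phototagged with the dyes JF646 and JF549, either at low resolution (3 rings of 1000 to 1500 μm, 2 plates) or at high resolution (2 successive outer bands of 250 μm, with the remaining cells inside them, 2 plates), and live cells were sorted into 384-well plates. The study asked which ligands and receptors connect the regions of a patch. No map from wells to regions was used here. Each plate is 1 of 2 biological replicates of its experiment. The sources used here do not state whether a plate was filled from 1 patch, and they do not give the share of each region on it.

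The filter of 2000 to 9000 detected features and under 40% mitochondrial counts left 291 and 271 low-resolution cells and 291 and 293 high-resolution cells, with a median of 30520 to 41248 transcripts per cell. Values for 4 plates are given in this order throughout. Because depth differed, detection was also measured in 1130 of the 1146 cells, thinned to 10000 unique molecular identifiers (UMIs) each. The 4 plates use the same 384 well barcodes by design. The epithelial label held for 9 of 10 marker genes, which had a UMI in at least 20% of the cells of every plate, with KRT5 in 100% of cells. The exception was TP63, found in at most 4.12%. Among genes that these cells should lack, the leukocyte marker PTPRC was found in 0.344% to 1.71% of cells and the endothelial marker CDH5 in at most 0.683%, although CD14 (up to 59.8%), PECAM1 (up to 47.1%) and COL1A1 (up to 27.6%) were frequent. The summed level of the immune list was 0.205 to 0.547 per 10000 transcripts, that of the endothelial list 0.188 to 0.234 and that of the fibroblast list 0.0634 to 0.0938.

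RefSeq promoter sequences (GRCh38.p14) were matched for 4 of the 8 genes, TNF, TNFSF10, TNFRSF1A and TNFRSF21. TNFRSF1A and TNFRSF21 are shown because they were both frequent and moved in opposite directions along the EMT score, as described further on. Each sequence is the 250 bases upstream of the RefSeq transcript start, on the minus strand, at chr12:6342077-6342326 and chr6:47309906-47310155. GC boxes (GGGCGG, or CCGCCC on the other strand) are in capitals. In the GENCODE annotation given below, TNFRSF1A starts at chr12:6342114, so the last bases of its sequence lie inside the gene there.
TNFRSF1A: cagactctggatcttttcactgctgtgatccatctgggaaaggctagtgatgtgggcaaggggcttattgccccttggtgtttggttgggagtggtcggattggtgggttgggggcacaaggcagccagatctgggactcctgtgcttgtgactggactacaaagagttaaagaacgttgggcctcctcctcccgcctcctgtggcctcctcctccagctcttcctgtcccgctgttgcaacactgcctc
TNFRSF21: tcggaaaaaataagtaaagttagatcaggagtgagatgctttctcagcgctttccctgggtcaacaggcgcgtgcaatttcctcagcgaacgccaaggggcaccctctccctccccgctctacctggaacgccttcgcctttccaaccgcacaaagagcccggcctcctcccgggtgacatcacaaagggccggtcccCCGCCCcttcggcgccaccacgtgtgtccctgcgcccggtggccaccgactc
The upstream region of TNFRSF21 held 1 GC box and had 62.0% G and C, and that of TNFRSF1A held none and had 56.8%. A GC box was present in 45.0% of 35116 promoters of 300 bases. Over that length and on both strands, neither of these promoters held TATAAA (11.5% of promoters), the AP-1 site TGANTCA (7.71%) or the NF-kappaB consensus (11.3%). TNF held TATAAA and a GC box, and TNFSF10 held TATAAA. A match or its absence describes these letters only.

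In the GENCODE v29 annotation of GRCh38, the genes lie at chr6:31575567-31578336 (TNF, plus strand), chr3:172505508-172523507 (TNFSF10, minus), chr17:7548891-7557890 (TNFSF12, plus), chr12:6328757-6342114 (TNFRSF1A, minus), chr16:3018445-3022383 (TNFRSF12A, plus) and chr6:47231532-47309905 (TNFRSF21, minus), with TNFRSF10A and TNFRSF10B on chromosome 8. The assay reads the 3′ ends of transcripts. The 3′ end of TNFRSF10B overlaps RHOBTB2 on the other strand, that of TNFRSF10A overlaps TNFRSF10A-AS1 on the other strand, and that of TNFSF12 lies within the read-through gene TNFSF12-TNFSF13. The sources used here do not state whether strand was used in counting, so the values of these genes may include reads of their neighbors.

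Among the 8 members, 4 of the 5 receptors were common and the 3 ligands were rare. TNFRSF12A was found in 96.9%, 94.1%, 97.6% and 98.6% of cells, TNFRSF21 in 93.5%, 93.4%, 92.4% and 93.9%, and TNFRSF10B in 91.8%, 91.9%, 93.1% and 93.2%. TNFRSF1A was found in 78.4%, 74.9%, 80.8% and 81.2% of cells. TNFRSF10A, the other TRAIL receptor, was limited to 13.1%, 13.3%, 13.1% and 16.0%. The study required a ligand or receptor in 20% of the cells of a population, meaning a region of the patch. It inferred that TNF was among the EMT inducers enriched in the outermost region. A plate mixes regions, so a member under 20% of a plate could still reach 20% in a region. Here 4 of 8 members reached 20% in every plate, all of them receptors, and 41.0% of all genes did so as well. The contrast of receptors with ligands holds for these 8 genes and not for the whole family. Of 11 other ligands in the data, 3 reached 20% in every plate (CD70, TNFSF14 and TNFSF9). Of 22 other receptors, 4 did so and 13 were under 5% in every plate.

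TNFSF12 was the most frequent of the 3 member ligands, with a UMI in 8.59%, 9.96%, 19.6% and 16.0% of cells. TNFSF10 was found in 0.687%, 2.95%, 0.687% and 2.05%, and TNF in 0.344%, 0.369%, 4.12% and 1.71%. PTPRC, which these cells should lack, was found in 0.344%, 0.738%, 1.03% and 1.71% of the same cells. The exact binomial 95% interval of TNF in high-resolution replicate 1 (2.15% to 7.09%) overlapped that of PTPRC (0.213% to 2.98%), and so did that of TNFSF10 in low-resolution replicate 2 (1.28% to 5.73%, against 0.0895% to 2.64%). In the other 3 plates the share of TNF was at or below that of PTPRC. PTPRC is 1 gene, and overlapping intervals do not show that shares are alike. At least 1 of the 3 ligands was found in 9.62%, 12.9%, 22.7% and 19.5% of cells.

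At equal depth the shares fell, and the order of the frequent receptors differed between plates. TNFRSF12A was then found in 82.9%, 76.9%, 87.7% and 89.0% of cells, TNFRSF21 in 74.6%, 78.0%, 62.0% and 65.3%, TNFRSF10B in 64.8%, 68.7%, 66.9% and 66.0%, and TNFRSF1A in 46.3%, 37.7%, 44.7% and 41.6%. TNFRSF21 was above TNFRSF12A in low-resolution replicate 2 and below TNFRSF10B in both high-resolution plates. The same 4 receptors stayed above 20% in every plate, as did 22.5% of all genes. TNFRSF21 was the one frequent receptor whose thinned shares were lower in both high-resolution plates. For TNFRSF12A both high-resolution plates were above both low-resolution plates.

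The rare members came close to the limit of detection at this depth. TNFSF12 was found in 3.48%, 3.73%, 8.80% and 2.41% of thinned cells and TNFRSF10A in 4.18%, 4.10%, 4.58% and 4.81%. The difference in TNFSF12 shares between low and high resolution at full depth was thus not kept in high-resolution replicate 2. TNF was found in 0 of 287 and 0 of 268 thinned low-resolution cells, which allows shares of up to 1.05% and 1.12%, and in 1.06% and 0.344% of the high-resolution cells.

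**Figure D1:**
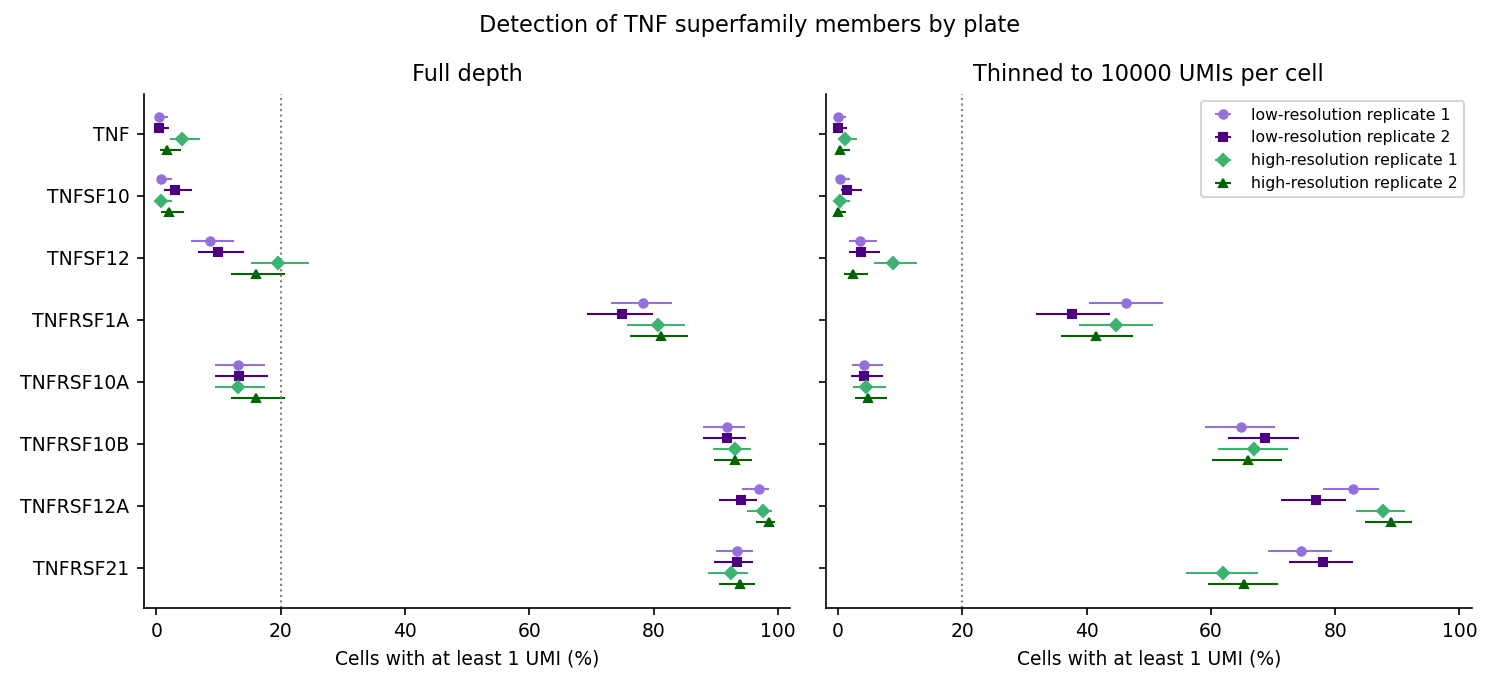
Share of cells with at least 1 UMI (%) for each of the 8 members in the 4 plates, at full depth (left) and after thinning to 10000 UMIs per cell (right). Points are plates, bars are exact binomial 95% intervals that cover counting error only, and the dotted line marks 20%; TNFRSF1A, TNFRSF10B, TNFRSF12A and TNFRSF21 lie to its right in both panels.

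The levels, as counts per 10000 transcripts of the summed cells of a plate, gave the same picture. The assay counts 1 tag per captured 3′ end, so levels were not divided by gene length, and differences in capture between genes cannot be told apart from differences in abundance. TNFRSF12A had the highest level, 2.28 ± 0.423 (SD, n = 4 plates), followed by TNFRSF21 (1.42 ± 0.249), TNFRSF10B (1.15 ± 0.0643) and TNFRSF1A (0.578 ± 0.0231). TNFSF12 (0.0445 ± 0.0163) and TNFRSF10A (0.0413 ± 0.00429) came next, and TNF (0.00782 ± 0.00985) and TNFSF10 (0.00472 ± 0.00314) were lowest. The plates of TNFRSF21 and TNFRSF10B overlapped, as did those of TNFSF12 and TNFRSF10A and those of TNF and TNFSF10. The plates of the other neighbors in this order did not overlap, and the TWEAK receptor TNFRSF12A stood above its ligand in every plate.

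**Figure D2:**
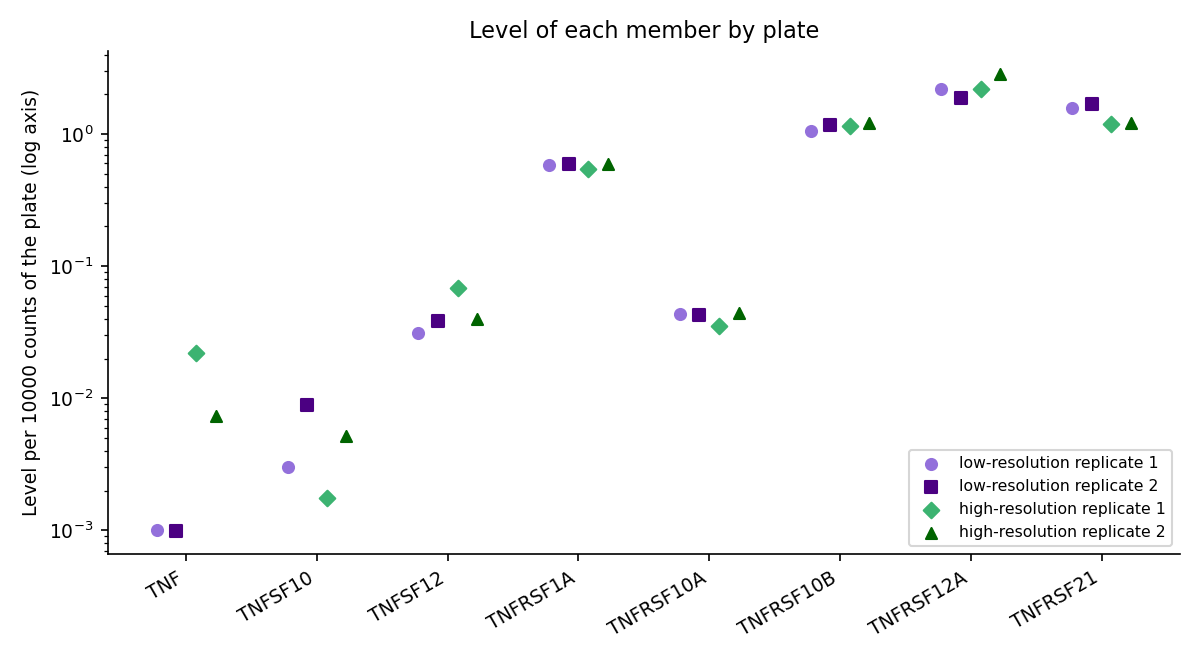
Level of each member per 10000 transcripts of a plate, on a log axis, with 1 point per plate. TNFRSF12A is highest, the values of TNFRSF1A lie between 0.544 and 0.593, and the plates differ most for TNF, from 0.000991 to 0.0219.

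Levels in high-resolution plates were set against those in low-resolution plates by edgeR's quasi-likelihood test on counts summed per plate, with Benjamini-Hochberg adjustment over all genes. These groups differ in the bands that were phototagged, and each of the 4 plates is 1 biological replicate of sorted cells. A difference in the mix of sorted regions cannot be told apart from a difference between whole patches. Of 12437 genes tested, 12.4% passed an adjusted p of 0.05 (6.26% higher and 6.18% lower at high resolution). Of the 8 members, 6 were abundant enough to be tested and 1 passed. The median log2 difference was 0.05 over the 6 members and -0.02 over all genes.

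TNFRSF21 was the member that passed. Its levels of 1.20 and 1.22 at high resolution were lower than those of 1.59 and 1.68 at low resolution, so the groups did not overlap, as was the case for 32.0% of all genes in this direction. The log2 difference was -0.40 ± 0.11 (SE), with an adjusted p of 0.0339 (edgeR). Without low-resolution replicate 2 the difference was -0.32 (adjusted p = 0.138), without high-resolution replicate 1 it was -0.39 (0.145) and without high-resolution replicate 2 it was -0.40 (0.140), so the call was lost in each case. Without low-resolution replicate 1, which the file names place on another flow cell, the difference was -0.47 (adjusted p = 0.0417).

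TNFRSF12A had levels of 2.19 and 1.87 at low and of 2.20 and 2.88 at high resolution. Its log2 difference of 0.36 ± 0.13 had an adjusted p of 0.0931 (edgeR), and the 2.19 and 2.20 of the first replicates lay side by side. Both high-resolution plates were above both low-resolution plates, as for 25.5% of all genes. The call was gained with the replicate number as a block (0.35, adjusted p = 0.0485), without the filter on low counts (0.37, 0.0248) and without high-resolution replicate 1 (0.54, 0.0123). TNFSF12 had levels of 0.0313 and 0.0386 against 0.0682 and 0.0399, with a log2 difference of 0.64 ± 0.31 (adjusted p = 0.203, edgeR).

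The remaining receptors did not pass the test. TNFRSF10B had a log2 difference of 0.11 ± 0.12 (adjusted p = 0.569), TNFRSF1A of -0.01 ± 0.12 (0.964) and TNFRSF10A of -0.08 ± 0.27 (0.885). The levels of TNFRSF1A were 0.581, 0.593, 0.544 and 0.593, and those of TNFRSF10B were 1.07, 1.17, 1.15 and 1.22, so that the groups overlapped for both.

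TNF was below the count filter, with 1, 1, 25 and 10 UMIs. Pooled over plates, 35 UMIs in 17 high-resolution cells stood against 2 UMIs in 2 low-resolution cells, a ratio of 14.01 with an exact interval of 3.60 to 120.2 that covers counting error only and not the spread between patches. Without high-resolution replicate 1 the ratio was 7.38 (1.57 to 69.3), and without high-resolution replicate 2 it was 21.9 (5.45 to 190.4). With no filter on low counts, TNF was higher at high resolution (adjusted p = 0.000152, edgeR), and it also passed the filter and the test without high-resolution replicate 2 (0.00142). Without low-resolution replicate 1 or 2 it passed the filter but not the test (0.0969 and 0.0777). The UMIs were unevenly spread over cells, with up to 5 and 6 in a single cell of the high-resolution plates. The intervals treat UMIs as independent, so they are too narrow for counts clumped in this way. TNFSF10, also below the filter, had 3, 9, 2 and 7 UMIs, its plates overlapped between the groups, and with no filter it did not pass (log2 -0.69, adjusted p = 0.716, edgeR).

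To relate the members to EMT, each cell was given an EMT score by gene set variation analysis: the score of mesenchymal genes (100 used at low and 97 at high resolution) minus that of 64 epithelial genes. None of the 8 members is among these genes. The cells of each plate were ranked by the score and cut into 3 parts of equal size. The top part (EMT-high, 97, 90, 97 and 97 cells) and the bottom part (EMT-low, as many cells) were summed. They were compared with the plate as a block, so that each comparison is between cells of the same plate. These parts are ranges of a continuous score, and 30, 32, 37 and 42 cells lay within 0.05 of a cut. Of 11296 genes tested, 41.0% passed (20.9% higher and 20.1% lower in EMT-high cells). Of the 6 members tested, 5 passed: TNFSF12, TNFRSF1A, TNFRSF10B and TNFRSF12A were higher and TNFRSF21 was lower. The median log2 difference was 0.56 over the 6 members and 0.01 over all genes.

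The TWEAK receptor TNFRSF12A rose from 1.72, 1.33, 1.53 and 2.13 per 10000 in EMT-low cells to 2.74, 2.57, 2.70 and 3.84 in EMT-high cells, with no overlap. The log2 difference was 0.75 ± 0.08 (1.68-fold, adjusted p = 1.28e-05, edgeR). Its ligand TNFSF12 was far rarer and rose from 0.00546, 0.0324, 0.0206 and 0.0409 to 0.0628, 0.0655, 0.113 and 0.0558. This was a log2 difference of 1.48 ± 0.38 (2.78-fold, adjusted p = 0.00858, edgeR), resting on 2 to 42 UMIs per sum. Without high-resolution replicate 1 it was 1.12, with an adjusted p of 0.0723. In cells, 17, 14, 28 and 20 TNFSF12-positive cells were EMT-high and 2, 7, 7 and 16 were EMT-low. After thinning, TNFSF12 was found in 0%, 4.4%, 3.1% and 2.1% of EMT-low cells and in 6.3%, 3.4%, 11.6% and 5.2% of EMT-high cells. The share was thus lower in the EMT-high cells of low-resolution replicate 2. At equal depth TNFSF12 fell below the count filter, so its rise was not tested there.

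The TNF receptor TNFRSF1A rose from 0.385, 0.438, 0.426 and 0.407 to 0.885, 0.831, 0.689 and 0.797, again without overlap. The log2 difference was 0.87 ± 0.10 (1.83-fold, adjusted p = 3.02e-05, edgeR). TNFRSF10B, the frequent TRAIL receptor, rose less, from 0.860, 1.07, 0.982 and 1.07 to 1.39, 1.47, 1.28 and 1.30 (log2 0.38 ± 0.09, 1.30-fold, adjusted p = 0.00441, edgeR). EMT-high sums that were all above the EMT-low sums were found for 17.2% of all genes tested, and for 4 of the 6 members.

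TNFRSF21 was the member that fell. Its level was 1.98, 1.89, 1.45 and 1.52 in EMT-low cells and 1.28, 1.27, 0.937 and 0.966 in EMT-high cells, a log2 difference of -0.70 ± 0.08 (adjusted p = 1.74e-05, edgeR). EMT-high sums all below the EMT-low sums were found for 13.0% of genes. TNFRSF10A did not pass, with levels of 0.0327, 0.0432, 0.0367 and 0.0341 in EMT-low cells against 0.0251, 0.0187, 0.0269 and 0.0335 in EMT-high cells (log2 -0.53 ± 0.31, adjusted p = 0.194, edgeR), from 6 to 16 UMIs per sum.

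**Figure D3:**
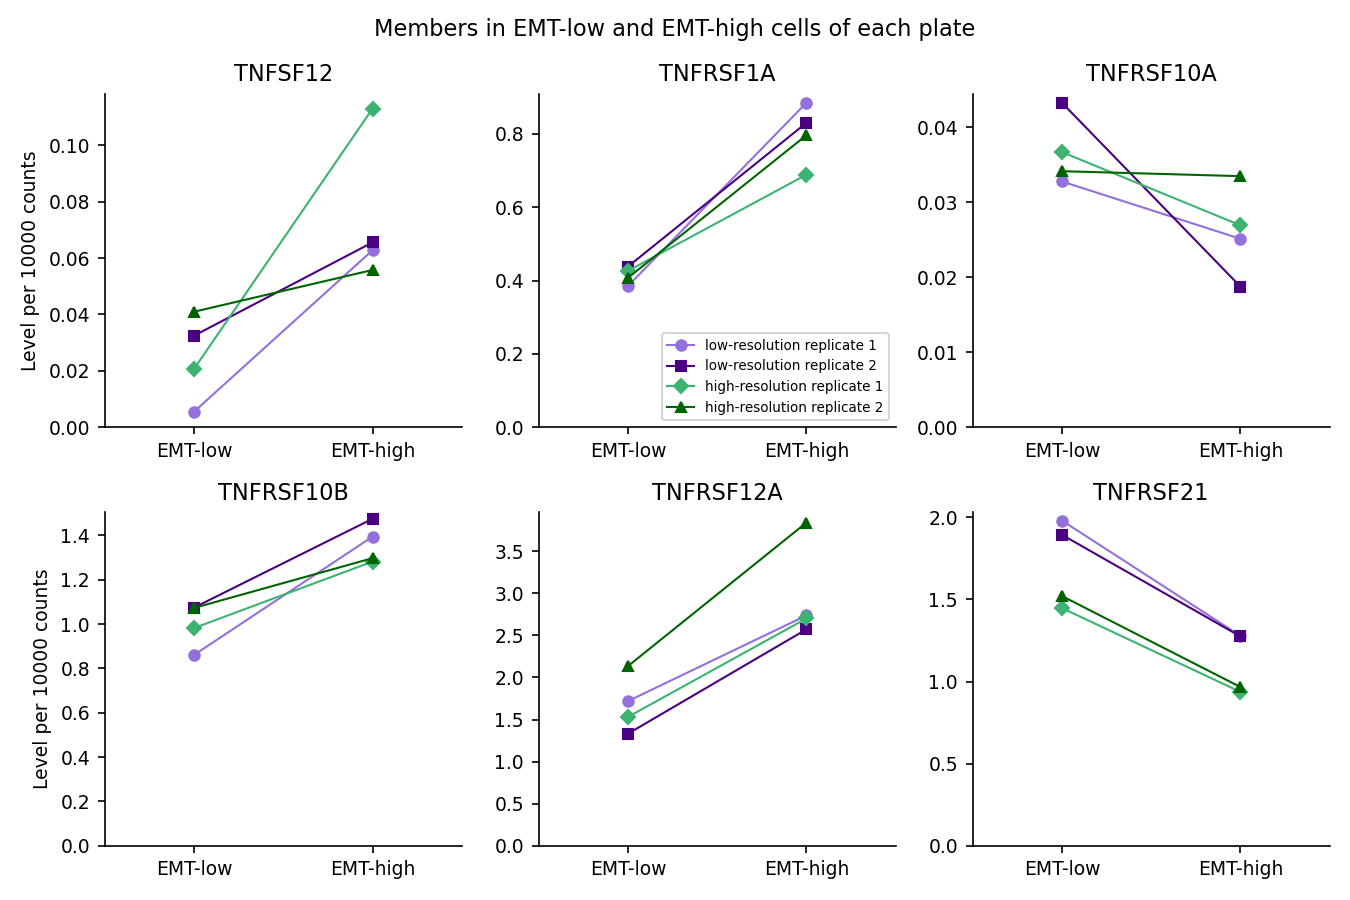
Level per 10000 transcripts of the 6 tested members in the EMT-low and EMT-high cells, with 1 line per plate. At full depth, shown here, TNFSF12, TNFRSF1A, TNFRSF10B and TNFRSF12A are higher and TNFRSF21 is lower in the EMT-high cells of all 4 plates.

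Other properties moved with the score. The median mitochondrial share was 32.6%, 33.1%, 33.8% and 31.7% in EMT-low cells and 26.4%, 29.0%, 27.6% and 25.9% in EMT-high cells, and the G2/M score had a mean rho of 0.217 with the EMT score. Among cells at or below the median G2/M score of their plate, the differences were 0.76 for TNFRSF12A, 1.07 for TNFRSF1A, 0.59 for TNFRSF10B, 1.45 for TNFSF12 and -0.76 for TNFRSF21, all past the threshold. Among cells at or below the median mitochondrial share they were 0.58, 0.83, 0.39, 1.81 and -0.51, of which TNFRSF10B no longer passed (adjusted p = 0.0582). Both of these comparisons were added after the data had been seen. With mitochondrial genes left out of the counts the differences were 0.76, 0.86, 0.39, 1.41 and -0.70, and with no limit on the mitochondrial share 0.78, 0.79, 0.33, 1.37 and -0.74, all past the threshold.

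The difference between EMT-high and EMT-low cells was also compared between the experiments by an interaction term. It passed for 2.25% of 11296 genes and for 0 of 6 members (smallest adjusted p 0.455, edgeR). The count was also 0 of 6 without TMM and with the z-score, and 0 of 8 without the filter. For TNFRSF12A the interaction was 0.05 ± 0.12 and for TNFRSF21 it was -0.02 ± 0.12 on the log2 scale.

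Across single cells, the correlation with the EMT score is given per plate as a description, because the cells of a plate share 1 library and are not replicates. The mean Spearman rho over 4 plates was 0.386 ± 0.0677 (SD) for TNFRSF12A, 0.311 ± 0.0532 for TNFRSF1A, 0.218 ± 0.0304 for TNFRSF10B and -0.269 ± 0.0304 for TNFRSF21. These 4 genes had a rho of at least 0.1 in size in every plate. Of 7959 genes found in 20% of cells, 13.6% did so upward and 9.37% downward. By mean rho, TNFRSF12A stood at percentile 97.8, TNFRSF1A at 96.1, TNFRSF10B at 91.0 and TNFRSF21 at 4.52. TNFSF12 had a weaker rho of 0.176, between 0.0757 and 0.254, and for TNF, TNFSF10 and TNFRSF10A the mean was between -0.0462 and 0.0132.

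In thinned cells the values were smaller, at 0.267, 0.225, 0.120 and -0.204 for the same receptors, and TNFRSF10B was under 0.1 in 1 plate (0.0806). The other 3 receptors kept a size of at least 0.1 in every plate, as 10.6% (upward) and 6.55% (downward) of 4353 genes did. Against single markers the signs followed the score. TNFRSF1A had a mean rho of 0.250 with FN1, a matrix protein of mesenchymal cells, and of -0.200 with EPCAM, an epithelial adhesion molecule. TNFRSF12A had 0.213 with FN1, 0.167 with VIM, a mesenchymal filament protein, and -0.0977 with CDH1, the epithelial cadherin. TNFRSF21 had the opposite signs, with 0.110 for EPCAM, 0.0926 for CDH1, -0.130 for VIM and -0.122 for FN1. At full depth TNFRSF12A also had a mean rho of -0.359 with the mitochondrial share and of 0.200 with the G2/M score, and TNFRSF21 of -0.160 with the G2/M score.

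**Figure D4:**
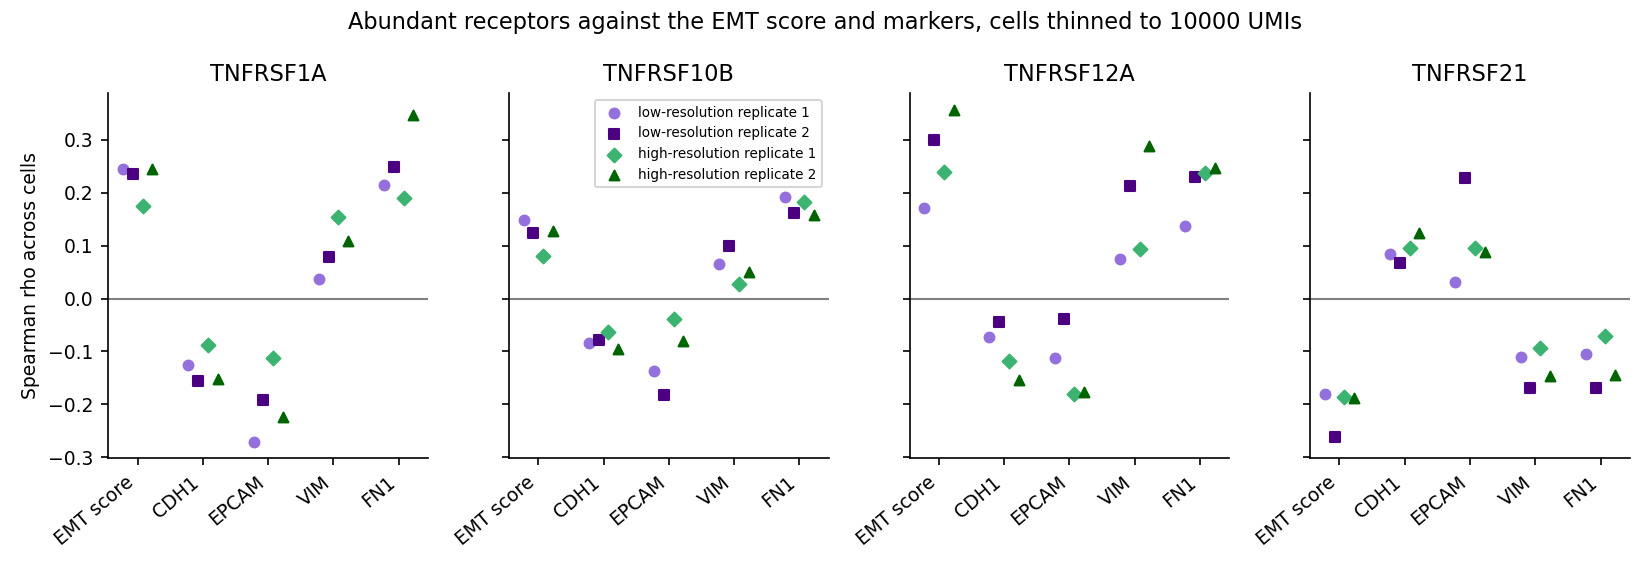
Spearman rho across thinned cells of TNFRSF1A, TNFRSF10B, TNFRSF12A and TNFRSF21 with the EMT score and with CDH1, EPCAM, VIM and FN1, with 1 point per plate. TNFRSF21 has the opposite sign to the other receptors for each measure in all 4 plates.

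The genes most like each frequent receptor were taken from 4401 genes found in 20% of thinned cells, by the mean rho over 4 plates. They were FN1 (0.250), TIMP1 (0.235) and SDCBP (0.223) for TNFRSF1A. For TNFRSF10B they were CDKN1A (0.214), the cell cycle inhibitor p21, TIMP1 (0.176), an inhibitor of matrix metalloproteinases, and FN1 (0.174). For TNFRSF12A they were THBS1 (0.309), a matricellular glycoprotein, TMSB10 (0.292), an actin-binding peptide, and ANXA5 (0.285), and for TNFRSF21 they included ADGRF1 (0.237) and CLDN4 (0.232), a tight junction protein.

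Most cells carried several receptors. The median cell had 4 of the 8 members at full depth and 3 after thinning. All 4 frequent receptors were found together in 67.4%, 60.9%, 70.8% and 74.4% of cells, against 65.1%, 60.5%, 67.8% and 70.1% for the product of their shares. In thinned cells it was 18.1%, 14.6%, 20.1% and 16.2%, against 18.6%, 15.5%, 16.3% and 15.9%.

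Of the 28 pairs of members, 14 were found together in at least 1 thinned cell of every plate. An odds ratio above 1 in all 4 plates was found for 2 pairs, TNFRSF10B with TNFRSF21 (1.21 to 1.29) and TNFRSF10A with TNFRSF12A (1.15 to 2.19). An odds ratio below 1 in all 4 plates was found for 1 pair, TNFRSF1A with TNFRSF10A (0.585 to 0.988). These ratios have 0.5 added to each count, and the same 3 pairs kept to one side of 1 with nothing added. TNFRSF10A with TNFRSF21 and TNFSF12 with its receptor TNFRSF12A were below 1 in every plate only with the addition, and reached 1.02 and 1.03 without it. The ranges came close to 1, and no test was made. At full depth, where cells with more transcripts have more of every gene, 8 pairs were above 1 in every plate.

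**Figure D5:**
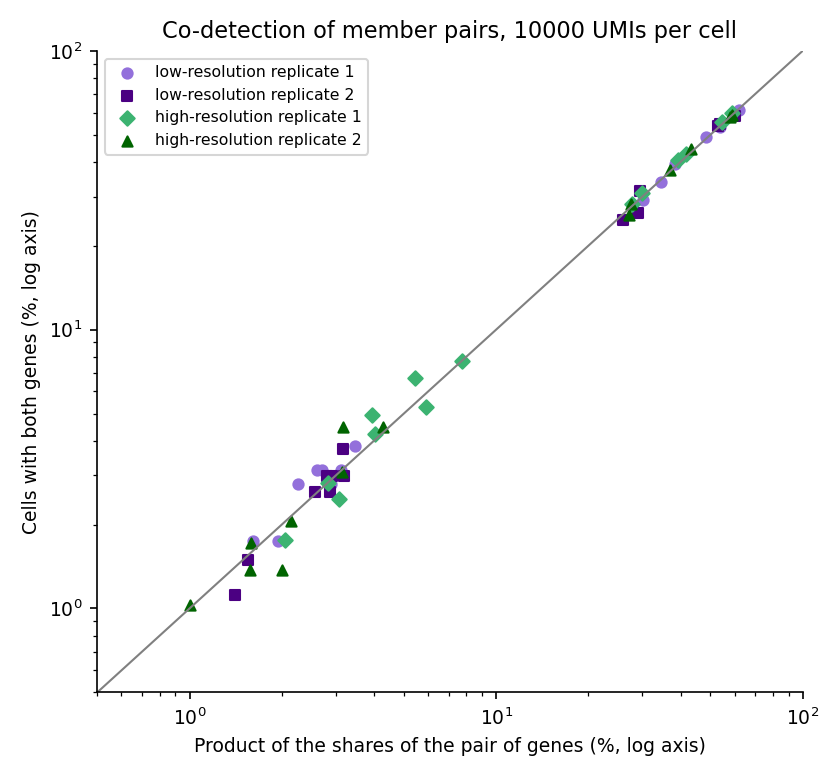
Share of thinned cells with both genes of a pair against the product of the shares of the pair, for 14 pairs and 4 plates, on log axes in percent. The points lie along the line of equality, with more scatter below 10%.

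At full depth most of the few ligand-positive cells had a UMI of the receptor, as did most of all cells. Of the 12 and 5 TNF-positive high-resolution cells, 11 and 5 had a UMI of TNFRSF1A, which 80.8% and 81.2% of all cells had, and their median percentile in the EMT score was 53.4 and 41.0. Of the 25, 27, 57 and 47 TNFSF12-positive cells, 25, 25, 56 and 47 had a UMI of TNFRSF12A, against 96.9%, 94.1%, 97.6% and 98.6% of all cells, and their median percentile was 78.4, 67.5, 66.7 and 58.0. After thinning, 3 and 1 high-resolution cells still had a UMI of TNF, and 0 of these had one of TNFRSF1A. The TNF-positive high-resolution cells were few and spread over the score, from percentile 13.7 to 98.6 and from 7.51 to 56.3. In high-resolution replicate 1 TNF had 2 UMIs in EMT-low and 9 in EMT-high cells, and in replicate 2 it had 1 and 0. The median TNFSF12-positive cell lay above the middle of the score in every plate, although such cells spanned most of it.

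The wider pathway was described from fixed gene lists in the comparison of EMT-high with EMT-low cells, in which 41.0% of all genes passed. Of 15 other TNF superfamily ligands, 4 were tested and only CD70, the ligand of CD27, passed, with a fall (log2 -0.68 ± 0.18). CD70 did not fall in high-resolution replicate 2, with a level of 0.665 in EMT-low and 0.681 in EMT-high cells. Its difference also varied between the experiments, as given further on. Of 24 other receptors, 7 were tested, of which 4 were higher and 2 lower. TNFRSF10D, a TRAIL decoy receptor, rose (1.37 ± 0.12) as did EDA2R, a receptor of ectodysplasin (0.76 ± 0.20). TNFRSF11B (osteoprotegerin, -1.30 ± 0.36) and TNFRSF11A (RANK, -1.18 ± 0.23) fell. The fall of TNFRSF11B was absent in high-resolution replicate 2, with a level of 0.0273 in EMT-low and 0.0290 in EMT-high cells. The levels of TNFRSF11B were low, from 0.0125 to 0.126 over all sums.

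Of 5 genes of ectodomain shedding, 3 were higher and 1 lower. ADAM17, which releases TNF from the membrane, rose by 0.41 ± 0.11 on the log2 scale, ADAM10 by 0.40 ± 0.12 and the convertase FURIN by 0.29 ± 0.09, whereas RHBDF1, a partner of ADAM17, had -0.59 ± 0.10. Of 21 adaptors, caspases and their regulators, 19 were tested, with 1 higher and 3 lower. MLKL, an effector of necroptosis, rose (0.87 ± 0.16), and the genes that fell included the BH3-only protein BID (-0.53 ± 0.12) and the apoptosis inhibitor BIRC3 (-0.52 ± 0.14). BIRC3 did not fall in high-resolution replicate 2, with a level of 1.65 in EMT-low and 1.74 in EMT-high cells. Its difference also varied between the experiments, as given further on.

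Of 12 NF-kappaB kinases and subunits, 4 were higher, among them RELB (1.13 ± 0.15) and NFKB1 (0.60 ± 0.13), and 1 was lower, NFKB2 (-0.29 ± 0.10). Of 15 NF-kappaB target genes, 13 were higher and none lower, with a median log2 difference of 1.56 against 0.01 over all genes. CXCL8, a neutrophil chemokine, rose from 0.0109, 0.0270, 0.0550 and 0.189 per 10000 to 0.403, 0.610, 1.16 and 2.26 (3.99 ± 0.17, adjusted p = 8.77e-09, edgeR). IL6 rose by 2.97 ± 0.43 from levels of 0 to 0.0160 in EMT-low cells. Between high- and low-resolution plates, 6 of the 15 targets were higher and none lower, where 6.26% of all genes tested were higher and 6.18% lower.

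The markers CDH1 (-4.53 ± 0.19), EPCAM (-4.53 ± 0.18), FN1 (4.37 ± 0.26) and VIM (5.44 ± 0.15) are part of the score, so their differences only describe how far these cells lie apart. Of the epithelial list 7 of 9 tested were lower, a count that includes CDH1 and EPCAM, whose fall follows from the score. Of the other cell type lists, CD14 (-1.13 ± 0.20) and KDR (-2.50 ± 0.37) were lower in EMT-high cells, 1 of 2 tested in the immune and 1 of 2 in the endothelial list, and the 1 fibroblast gene tested did not pass.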

How the data were processed

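SORT-seq, a plate-based assay with UMIs, was run on MCF10A cells in 4 plates. The authors deposited 1 table of expected counts per plate: distinct UMIs per gene and well with a correction for repeated draws of the same UMI, unscaled. The submitters' processing notes name STAR 2.7.3a, Seurat 4 and hg38; the annotation is not given in the sources used here. Plate totals were 11709628 to 14992348. The file names place low-resolution replicate 1 on a different flow cell from the other plates.

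The members and gene lists were chosen with earlier results of these data known. Wells were filtered as in the study, spike-ins were left out, and doublets were not called. The correction was undone to within 1e-09 of a whole UMI for all 7245730 values above 0, and those UMIs were thinned without replacement. GSVA was re-implemented with a Gaussian kernel, and each experiment was scored on its own. Summed expected counts were rounded and tested with edgeR 4.0.16 (quasi-likelihood, TMM, filterByExpr, Benjamini-Hochberg) in R 4.3.3, and again with DESeq2 1.42.0. Standard errors were computed from log2 fold changes and F values. Cell cycle genes came from Seurat 5.3.0. Odds ratios have 0.5 added to each count. Shares have Clopper-Pearson 95% intervals, and a share of 0 has a limit of 3 counts, both for counting error only. The study calls the replicates biological replicates of patches. P-values between experiments measure the spread between plates of a group. Those between EMT-high and EMT-low cells measure how far the difference within a plate varied over the 4 plates.

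The genes named are the 8 members, the 2 largest rises and 2 largest falls called between EMT-high and EMT-low cells in each pathway list (all where 4 or fewer were called), the 3 genes most like each frequent receptor, and 4 EMT markers. Some genes that this rule names are not reported here. Lists covered other ligands, other receptors, shedding, adaptors and caspases, NF-kappaB kinases and subunits, NF-kappaB targets, EMT markers, and epithelial, immune, endothelial and fibroblast markers. In simulated counts for 12437 genes, the comparison of experiments recovered 34 of 100 genes changed 1.5-fold and 78 of 100 changed 2-fold with 14 false calls. For EMT-high against EMT-low cells (11296 genes) it was 44 and 85 of 100, with 11 false calls. Alternatives were DESeq2, no TMM, no filter, the replicate block, equal depth, other cell filters, a z-score, a cut of the score at its median, mitochondrial genes left out, and each plate left out.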

Additional observations from a re-analysis of the deposited data

Results flagged for a closer look

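Wells with fewer than 2000 features took no part in any comparison, yet the 222 such wells held 84 UMIs of TNFRSF12A, 57 of TNFRSF10B, 55 of TNFRSF21 and 16 of TNFRSF1A, above the limit that a count of 0 allows. The other 4 members had 0 UMIs there. Per 10000 transcripts this was 0.744 for TNFRSF12A, 0.505 for TNFRSF10B, 0.487 for TNFRSF21 and 0.142 for TNFRSF1A, each below its level in the cells that passed the filter.

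For 10 genes of the pathway and marker lists, the difference between EMT-high and EMT-low cells itself differed between high and low resolution in the interaction test (edgeR, adjusted over all genes), with n = 2 plates each. Of all 11296 genes tested, 2.25% passed. The genes were 4 of 15 NF-kappaB targets tested, 3 of 9 epithelial markers, 1 of 4 other ligands, 1 of 19 adaptors and caspases and 1 of 2 immune markers. No gene of the remaining lists passed. CD70 differed by 0.96 on the log2 scale (adjusted p = 0.0266): its level went from 0.953 and 0.855 in EMT-low to 0.355 and 0.487 in EMT-high cells at low resolution, and from 0.759 and 0.665 to 0.587 and 0.681 at high resolution. BIRC3 differed by 0.71 (adjusted p = 0.0303), going from 1.67 and 1.25 to 0.964 and 0.718 at low and from 1.22 and 1.65 to 0.959 and 1.74 at high resolution. CD14 differed by -1.09 (adjusted p = 0.0350), with a fall from 0.445 and 0.259 to 0.113 and 0.0981 at high resolution and from 0.519 and 0.563 to 0.304 and 0.415 at low resolution.

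The other 7 were chosen after their values were seen. The NF-kappaB target chemokines CXCL1, CXCL2, CXCL3 and CCL20 rose in EMT-high cells in both experiments, by less at high resolution. CXCL8, a chemokine of the same list, did not pass the interaction test. For CXCL2 the log2 difference was 3.40 ± 0.19 at low and 1.03 ± 0.12 at high resolution (interaction -2.36, adjusted p = 0.000874, edgeR), and for CCL20 it was 2.45 ± 0.14 and 1.02 ± 0.11 (-1.43, adjusted p = 0.00118, edgeR). The interaction was -1.78 for CXCL1 (adjusted p = 0.0134, edgeR) and -2.07 for CXCL3 (adjusted p = 0.0398, edgeR). The keratin KRT5 had -0.47 ± 0.07 at low and -1.16 ± 0.06 at high resolution (interaction -0.68, adjusted p = 0.000893, edgeR), KRT17 had -0.36 ± 0.07 and -1.16 ± 0.08 (-0.79, adjusted p = 0.00394, edgeR), and KRT6A had 0.07 ± 0.11 and -1.40 ± 0.05 (-1.46, adjusted p = 0.000422, edgeR).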

How the results depend on the processing

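The number of members found in 20% of cells was 4 under every alternative and with each plate left out. The number with a rho of 0.1 in every plate was 3 after thinning, 5 without high-resolution replicate 2 and 4 otherwise. Between EMT-high and EMT-low cells, 85 of 87 alternative values of single members kept their direction and side of the threshold, and 2 lost the call: TNFSF12 without high-resolution replicate 1 (1.12) and TNFRSF10B in cells of low mitochondrial share (0.39). These values hold none for TNFSF12 or TNFRSF10A after thinning, where both fell below the count filter. Genes called there went from 4633 to 2966 with no replicate block, 2834 after thinning, 2525 in cells of low mitochondrial share and 3812 to 3940 with a plate left out. Between experiments, 1547 genes became 869 after thinning, 1050 with DESeq2 and 982 to 1172 with a plate left out, where an arm of 1 plate borrows the spread of the others. With the replicate number as a block it was 2023, but deviations of same-numbered plates had r = -0.01 over 10937 genes, so the plates share only a number; the block gained the call of TNFRSF12A and changed no other member's call. Of 60 values of single members, 48 kept direction and side. TNFRSF1A changed sign with DESeq2 (0.00649), without the filter (0.000126) and with a plate left out (-0.0595 to 0.0487, above 0 without low-resolution replicate 2, 0.0485, or high-resolution replicate 1, 0.0487), and TNFRSF10A after thinning (0.0764) and with a plate left out (-0.247 to 0.0765, above 0 without high-resolution replicate 1). None of these values was called. The interaction gave 254 genes, 383 with the z-score and 541 without the filter. Co-detection gave 2 pairs, 8 at full depth, and 3 to 4 with a plate left out, the highest without low-resolution replicate 2. The causes were not tested. Depth limits TNF, TNFSF10, TNFSF12 and TNFRSF10A most.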

Other observations

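The 167 wells of at least 2000 features that were left out for 40% or more mitochondrial counts had a level of TNFRSF21 above that of TNFRSF12A in 3 of 4 plates: 1.51, 1.60, 1.71 and 1.23 per 10000 transcripts for TNFRSF21 and 1.28, 1.05, 0.981 and 1.34 for TNFRSF12A. In high-resolution replicate 1 TNFRSF10B (1.25) was also above TNFRSF12A. In the cells that passed the filter, TNFRSF12A was above TNFRSF21 in every plate.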
